A study of Oryza sativa with 6 samples.

Results

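The four-library sites with displaced summits are places in the rice genome where BG4-DNA-IP-seq gave a peak in every library, yet put the highest point of that peak at different positions. The peaks of the 2 K+PEG and the 2 K+PDS libraries were pooled and merged wherever they overlapped by at least 1 bp. A merged interval was kept when it was under 2000 bp wide and held exactly 1 peak of each library, which left 18439 of 115855 merged intervals. In 13492 of these, the 4 summits spanned more than 100 bp. They are called displaced here, and the other 4947, with a span of 100 bp or less, are called aligned. The summit is the position of the greatest pileup of reads within a peak. Members were thus chosen by the measured summit positions, so every value of summit position below describes them and carries no test.

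A G4 forms when guanines of a G-rich strand stack into planar tetrads that are held together by a cation, most readily K+. PEG mimics the crowding of molecules in a cell, and PDS (pyridostatin) is a small ligand that binds folded G4s. BG4 is a single-chain antibody that recognizes G4 structures, and DNA fragments bound by it pile up around the folded sequence. A pileup can have more than 1 maximum within a peak, and the caller reports the highest.

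All libraries came from the above-ground parts of seedlings of WT Nipponbare rice. The genomic DNA was fragmented, denatured and refolded in 150 mM KCl, then incubated with BG4 in a buffer with 40% PEG (K+PEG, 2 libraries) or with PDS (K+PDS, 2 libraries). The assay reports folding of purified DNA in vitro, and no files of the 2 input libraries were used here. The protocol in the sample labels, shared by all samples, names PEG and not PDS, so the condition follows the titles and the methods.

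The depth behind a summit differed between libraries. The reads and background at each summit were solved from enrichment and p-value. The lowest background shared by several peaks of a library, taken over the genome size of the authors, then gave the reads used for calling. They numbered 7904200 (replicate 1) and 13334939 (replicate 2) for K+PEG, and 5985011 (replicate 1) and 7554120 (replicate 2) for K+PDS. These totals hold if reads were extended to 200 bp, the length of the shortest peak. They also assume that this background follows the reads of the library, and whether a control entered the calls is not known. At the displaced sites the median summit rested on 26 and 43 reads in K+PEG replicates 1 and 2, and on 19 reads in each K+PDS replicate. K+PEG replicate 2 was therefore the deepest library, and both K+PDS libraries placed their summits from the fewest reads. Peaks are named with "uniq" in the K+PDS lists but not in the K+PEG lists. Whether reads were filtered differently for the conditions was not settled, and the part of such a filter in any difference between conditions cannot be told apart from the condition.

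The span of the 4 summits formed 1 broad distribution. Among displaced sites its median was 243 bp, with quartiles of 155 and 377 bp and a highest value of 1499 bp, against a median of 65 bp at aligned sites. A span of 101 to 150 bp was found at 3135 displaced sites (23.2%), whereas 824 (6.11%) spanned more than 600 bp. The distribution passed through the limit without a step. It held 77 sites with a span of 101 bp, just inside, and 69 with a span of 100 bp, just outside. The median fold enrichment of the sites at 101 bp was 5.05 and 5.29 for K+PEG, 4.27 and 3.47 for K+PDS, and at 100 bp it was 5.04 and 6.26 for K+PEG, 4.66 and 3.71 for K+PDS. The displaced sites made up 73.2% of all single-peak four-library sites, so they are the larger part of that class.

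**Figure D1:**
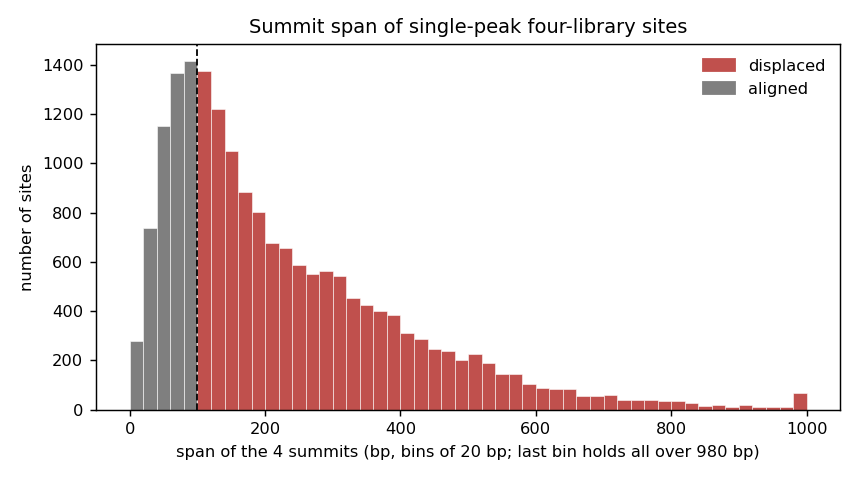
Number of single-peak four-library sites (y axis) by the span of their 4 summits in bp (x axis, bins of 20 bp, the last bin holding every span over 980 bp), with displaced sites in red and aligned sites in grey and the limit of 100 bp as a dashed line. The counts are highest next to the limit, with 1374 sites from 101 to 120 bp and 1413 from 81 to 100 bp.

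To ask whether the summits moved between conditions or between replicates, the 4 summits of each site were put in order along the chromosome, and the largest of the 3 gaps between neighbours was used to part the libraries. This can happen in 7 ways. The gap can separate K+PEG from K+PDS, replicates 1 from replicates 2, or the crossed pairs (K+PEG replicate 1 with K+PDS replicate 2, against K+PEG replicate 2 with K+PDS replicate 1), or it can leave 1 of the 4 libraries alone. At 10211 of the 13492 displaced sites (75.7%), 1 library stood alone against the other 3, compared with 74.0% of all single-peak four-library sites and 69.4% of aligned sites. K+PDS replicate 2 was that library at 4586 sites (34.0%, 95% Wilson interval 33.2 to 34.8%), K+PEG replicate 1 at 2110 (15.6%), K+PDS replicate 1 at 2061 (15.3%) and K+PEG replicate 2 at 1454 (10.8%). Of all single-peak four-library sites, K+PEG replicate 1 was alone at 16.05%, K+PDS replicate 1 at 15.4% and K+PEG replicate 2 at 11.5%. Each of these libraries was thus alone slightly less often among displaced sites. The most frequent arrangement was thus a disagreement between replicates of K+PDS, in which replicate 1 stayed with both K+PEG libraries. The intervals given here and below cover counting error only, and sites are not replicates of a condition.

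A gap between the conditions was found at fewer sites than a lone library. The arrangements are not equally likely, since the outer 2 of the 3 gaps always leave 1 library alone. The pooled share of lone libraries therefore does not weigh replicates against conditions. The largest gap separated K+PEG from K+PDS at 1562 displaced sites (11.6%, interval 11.05 to 12.1%), which is near the 11.7% of all single-peak four-library sites and the 11.9% of aligned sites with this arrangement. The largest gap separated the crossed pairs at 1060 displaced sites (7.86%), against 8.29% of the whole class and 9.46% of aligned sites. It separated replicates 1 from replicates 2 at 603 (4.47%), against 5.31% of the whole class and 7.60% of aligned sites. Of the 3225 sites parted into 2 libraries against 2, 48.4% were parted by condition. This compares with 46.2% of the 4660 such sites in the whole class and 41.2% of the 1435 such aligned sites. At 56 sites the largest gaps were equal. Displacement by condition was therefore the most frequent of the 3 pairings, but not more frequent among displaced sites than in their whole class. K+PDS replicate 2 stood alone at 34.0% of displaced sites, at 31.0% of the whole class and at 22.9% of aligned sites.

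**Figure D2:**
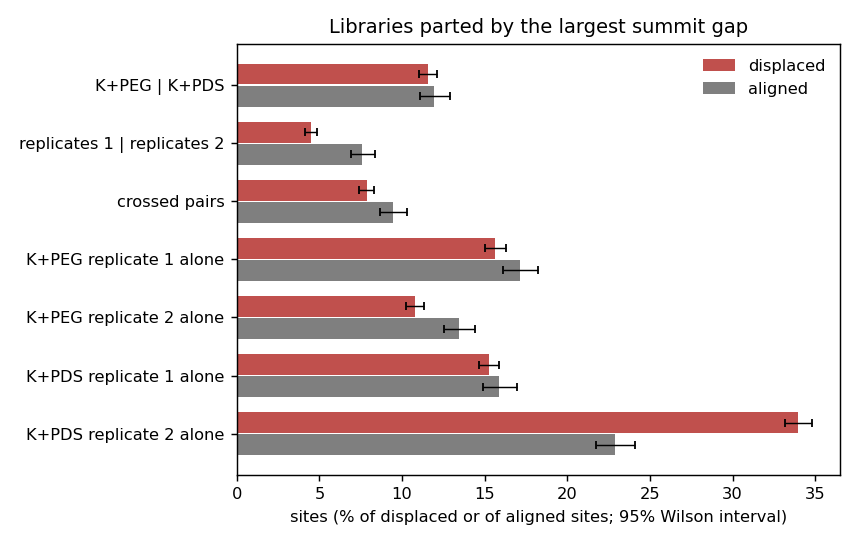
Share of displaced sites (red, n = 13492) and of aligned sites (grey, n = 4947) in percent (x axis) for each way in which the largest summit gap parts the 4 libraries (y axis), with 95% Wilson intervals as error bars. K+PDS replicate 2 alone has the longest bar, 34.0% of displaced against 22.9% of aligned sites, whereas K+PEG | K+PDS is at 11.6% and 11.9%.

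The order of the summits, without regard to gaps, gave a related picture. At 5368 displaced sites (39.8%) both K+PEG summits lay on one side of both K+PDS summits, compared with 38.6% of all single-peak four-library sites and 35.5% of aligned sites. Summits of replicates 1 and replicates 2 did not overlap at 3598 displaced sites (26.7%), against 27.4% of the whole class. Those of the crossed pairs did not overlap at 4361 (32.3%), against 32.1%. Apart from ties, each site falls under exactly 1 of these 3 orders, so they are a division of the sites and not 3 separate results. The K+PEG summits were at the lower coordinates at 2758 of the 5368 sites (51.4%), so neither condition was placed to one side along the chromosomes. The files give no strand for a peak.

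The distance between 2 summits of the same site showed which libraries kept together. At displaced sites the median distance was 72 bp between the K+PEG replicates and 127 bp for the K+PDS pair. Across conditions, K+PDS replicate 1 lay 85 bp from K+PEG replicate 2 and 107 bp from K+PEG replicate 1. Replicate 2 of K+PDS lay 136 bp from K+PEG replicate 2 and 139 bp from K+PEG replicate 1. The 3 largest medians are those with K+PDS replicate 2, whether its partner was of its own condition or not. K+PDS replicate 1 lay closer to either K+PEG replicate than to K+PDS replicate 2. At aligned sites, where the span limits every distance, the order of the 6 pairs was the same, from 25 to 33 bp.

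**Figure D3:**
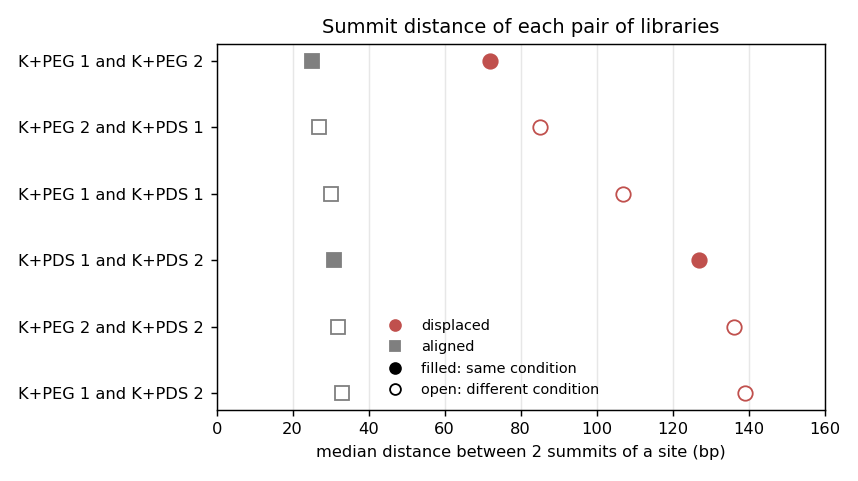
Median distance in bp (x axis) between the summits of 2 libraries at the same site, for the 6 pairs of libraries (y axis), at displaced sites (red circles) and aligned sites (grey squares), with filled symbols for libraries of the same condition and open symbols for different conditions. The K+PEG replicates are closest at 72 bp, and the 3 pairs with K+PDS replicate 2 are the farthest, at 127 to 139 bp.

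Averaged over pairs, the distance between conditions and that within conditions were close. The mean over displaced sites was 164.1 bp between conditions and 148.5 bp within them, a mean difference of 15.7 bp, but the median of the difference per site was -5.25 bp. The mean and the median thus differed in sign. The difference was positive at 5368 sites (39.8%), the same sites at which the summits of the conditions did not overlap, and negative at 7959 (59.0%). Its sign thus repeats the order of the summits and is not a separate result. Since the other orders always give a negative value, a negative median does not show that replicates differed more than conditions. Measured against the median of the other 3 summits, the summit of K+PEG replicates 1 and 2 was displaced by a median of 84 and 73 bp, and that of K+PDS replicates 1 and 2 by 83 and 120 bp. It was more than 100 bp away at 42.8% and 37.4% of displaced sites in the K+PEG libraries, and at 42.1% and 58.2% in the K+PDS libraries.

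Since 1 library stood apart, the members were read again without it. Without K+PDS replicate 2, the summits of the other 3 libraries still spanned more than 100 bp at 9577 of the 13492 sites (71.0%). The share was 86.2% without K+PEG replicate 1, 89.8% without K+PEG replicate 2 and 85.5% without K+PDS replicate 1. Most of the sites therefore stayed displaced without any given library, and K+PDS replicate 2 accounted for the largest drop. At the 9577 sites, the larger gap left K+PDS replicate 1 alone in 41.8%, K+PEG replicate 1 in 35.4% and K+PEG replicate 2 in 22.6%. With K+PDS replicate 1 left out instead, K+PDS replicate 2 was alone in 54.1% of 11530 sites.

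Direction was also read in the pair of libraries whose distance did not choose the sites. Every site still needed a peak of all 4 libraries, so this reading is not wholly free of the choice. It also largely repeats the order of the summits. Sites whose conditions did not overlap (38.6% of the class) always give the same direction, and those of crossed pairs (32.1%) always the opposite. Replicate 1 of K+PEG and of K+PDS had summits more than 100 bp apart at 7122 single-peak four-library sites, with a median distance of 202 bp. In replicate 2, the K+PEG summit lay to the same side of the K+PDS summit at 3865 of these (54.3%) and to the opposite side at 3238 (45.5%). When replicate 2 chose 8636 sites, the direction was the same in replicate 1 at 54.3% and opposite at 44.8%. The median distance in the pair whose distance did not choose the sites, signed by the direction in the pair that did, was 16 and 12 bp. The direction of a displacement between conditions was thus found again only slightly more often than its reverse. For replicate numbers it went the other way. There, sites whose replicate numbers did not overlap (27.4%) always give the same direction, and those of crossed pairs the opposite. Neither reading is thus a wholly separate result. At 5292 sites where the K+PEG replicates were more than 100 bp apart, the K+PDS replicates were displaced in the same direction at 45.3% and in the opposite one at 54.0%. Across all 18439 sites, which share 4 libraries and are not replicates, the signed displacements between conditions in replicates 1 and 2 had a Pearson r of 0.096 and a Spearman rho of 0.081.

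A clean arrangement is one in which all summits on each side of the gap lie within 50 bp of each other and the gap exceeds 100 bp. It was found at 2560 displaced sites. K+PDS replicate 2 was alone at 1054 of them (41.2%), K+PDS replicate 1 at 342 (13.4%), K+PEG replicate 1 at 318 (12.4%) and K+PEG replicate 2 at 207 (8.09%). The conditions were cleanly parted at 318 (12.4%), the crossed pairs at 207 (8.09%) and the replicate numbers at 114 (4.45%). The median gap was of like size in all 7 arrangements, from 173.5 to 198.5 bp, and was 181.5 bp for sites parted by condition. K+PEG lay at the lower coordinates at 161 of the 318 sites parted by condition and K+PDS at 157.

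The sites with the largest clean gap between the conditions show what the displacement looks like. Coordinates are those of the MSU v7.0 build. The site with the widest gap runs along chromosome 1 from 21313330 to 21314863. Its summits were at 21313585 and 21313556 in K+PEG replicates 1 and 2, and at 21314546 and 21314580 in K+PDS replicates 1 and 2, leaving a gap of 961 bp. The fold enrichment was 3.43 and 5.11 under K+PEG and 3.37 and 2.65 under K+PDS, from 23 and 60 against 13 and 13 reads. Replicates agreed within 34 bp in either condition, while only the peak of K+PEG replicate 2 was long enough to hold all 4 summits.

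The strongest of these sites lies on chromosome 2 from 30662284 to 30663656. Both K+PEG summits, at 30662591 and 30662582, were enriched 10.4-fold and 9.99-fold, from 53 and 80 reads. The K+PDS summits, 831 bp farther on at 30663422 and 30663465, had 6.89 and 4.78 from 28 and 23 reads. Here 3 of the 4 peaks, all but that of K+PDS replicate 2, covered all 4 summits, so both maxima lay within the peaks of both conditions.

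A site on chromosome 8 from 6971497 to 6973102 had the stronger signal under K+PDS. Its fold enrichment was 3.87 and 3.72 under K+PEG and 5.78 and 6.25 under K+PDS, with a gap of 706 bp between summits at 6971916 and 6971966 (K+PEG) and at 6972710 and 6972672 (K+PDS). All 4 peaks held all 4 summits. The conditions therefore shared a peak here and differed in which part of it was highest.

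At the other 3 sites the summits rested on 10 to 53 reads. On chromosome 2 from 14062707 to 14063893, the gap was 779 bp, with 20 and 23 reads at the K+PEG summits and 16 at each K+PDS summit. On chromosome 8 from 14255885 to 14257434, the gap was 693 bp, with 27 and 53 against 10 and 21 reads. On chromosome 5 from 8795168 to 8796103, it was 666 bp, with 21 and 26 against 32 and 20 reads. At the chromosome 8 site no peak held all 4 summits, so the merged interval there is a chain of peaks that cover different parts.

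**Figure D4:**
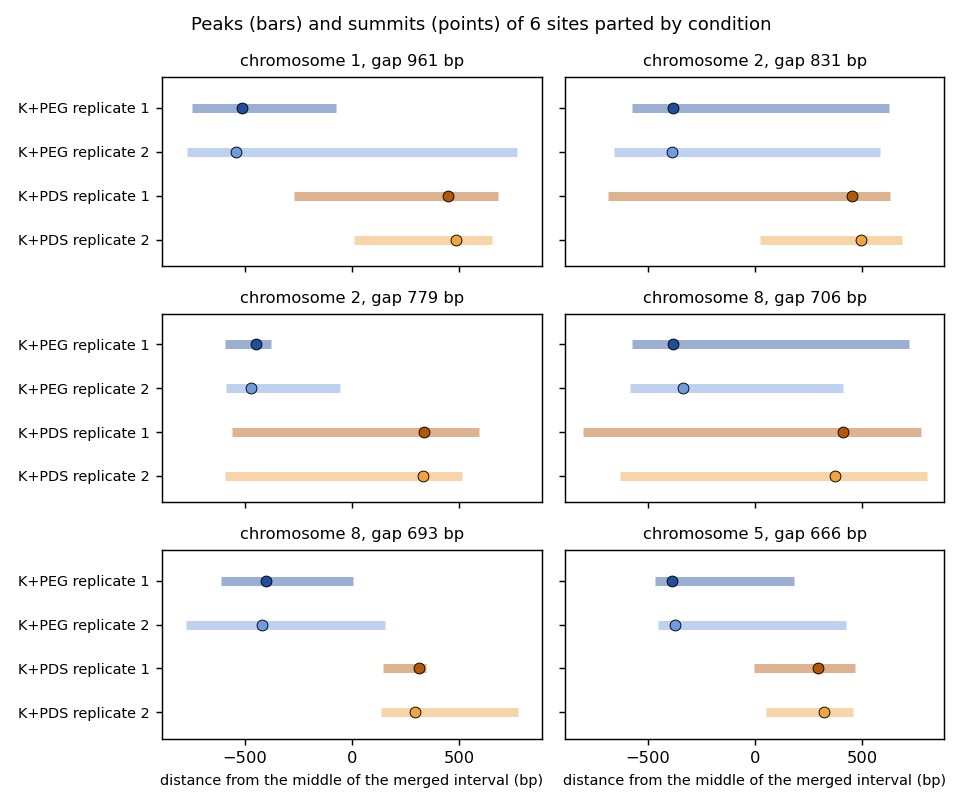
Peaks (bars) and summits (points) of the 4 libraries (y axis) at the 6 sites with the largest clean gap between conditions, as distance in bp from the middle of the merged interval (x axis), with K+PEG in blue and K+PDS in orange. In each panel the replicates of a condition differ by at most 50 bp and the conditions by a gap of 666 to 961 bp.

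Gaps of this size were not particular to the conditions. Replicates 1 and replicates 2 were parted by 705 bp on chromosome 10 from 22808889 to 22810014, where the fold enrichment was 2.55 and 3.19 in K+PEG and 3.45 and 3.29 in K+PDS, and by 606 bp on chromosome 12 from 22891921 to 22893232. The crossed pairs were parted by 837 bp on chromosome 1 from 22789079 to 22790387 and by 733 bp on chromosome 8 from 22799002 to 22800264. On chromosome 1 K+PEG was enriched 7.49-fold (replicate 1) and 3.21-fold (replicate 2), and K+PDS 4.40-fold (replicate 1) and 4.16-fold (replicate 2). The K+PEG replicates were thus 837 bp apart at this site.

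A single library was moved by similar distances. On chromosome 5, K+PDS replicate 2 lay 956 bp from the nearest other summit, in a site from 10552492 to 10554392, where it was enriched 7.64-fold from 37 reads. Both K+PEG replicates, at 6.19-fold and 4.78-fold, and K+PDS replicate 1, at 9.09-fold, had their summits between 10552829 and 10552870, and all 4 peaks held all 4 summits. A high fold enrichment at this site thus went with a displaced summit in 1 replicate. On chromosome 3 from 35418949 to 35420271 the same library was 931 bp away, enriched 2.08-fold from 14 reads, and no peak held all summits. K+PDS replicate 1 was alone by 850 bp on chromosome 5 from 10033614 to 10034832, from 14 reads, and by 776 bp on chromosome 1 from 31390143 to 31391434, also from 14 reads. K+PEG replicate 1 was alone by 756 bp on chromosome 6 from 29844648 to 29846386 and by 722 bp on chromosome 8 from 7596999 to 7598571. K+PEG replicate 2 was alone by 775 bp on chromosome 2 from 7200262 to 7201863 and by 772 bp on chromosome 6 from 8582242 to 8583309. Among clean sites, the largest gaps of the 4 libraries therefore ranged from 756 to 956 bp and overlapped the range of the clean sites parted by condition.

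The strongest displaced sites, ranked by the lowest fold enrichment of the 4 libraries, had short displacements with 1 exception. On chromosome 7 from 24272364 to 24273969 the fold enrichment was 15.7 and 15.96 under K+PEG and 28.0 and 18.2 under K+PDS, and the span was 216 bp. On chromosome 2 from 8734488 to 8735262 it was 16.03 and 14.8 against 16.95 and 14.05, with a span of 151 bp. On chromosome 9 from 11788394 to 11789448 it was 17.1 and 13.8 against 15.7 and 12.3, with a span of 133 bp. None of these 3 was parted by condition. The exception lies on chromosome 7 from 19514924 to 19516173, where the summits were at 19515607 and 19515485 under K+PEG and at 19515226 and 19515121 under K+PDS. The fold enrichment was 28.6 and 16.4 against 18.99 and 15.2, from 155 and 153 against 84 and 84 reads, and the span was 486 bp. The conditions were 259 bp apart at this site and the replicates 122 and 105 bp, and all 4 peaks held every summit. Of the 175 sites with a fold enrichment over 7 in every library, 66 (37.7%) were displaced. The largest gap separated the conditions at 15 of these 66 and left K+PDS replicate 2 alone at 14. In the next lower range, from 5 to 7, the conditions were parted at 36 of 328 (10.98%), so the share of 15 in 66 rests on few sites, and the limit of 7 was set after the values were seen.

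Peaks of a site were joined by overlap, so some overlap is set by the rule. A segment shared by all 4 peaks was present at 12545 displaced sites (93.0%) with a median length of 278 bp, and at every aligned site with a median of 270 bp. At 12750 displaced sites (94.5%) at least 1 peak held all 4 summits, and at 5746 (42.6%) every peak did, compared with 97.0% of aligned sites. K+PEG peaks held both K+PDS summits in both replicates at 70.5% of displaced sites, and K+PDS peaks held both K+PEG summits at 62.8%. Most displaced sites thus had a segment common to all 4 peaks, but at only 42.6% of displaced sites did every peak cover the maximum of every library. The higher share at aligned sites is favoured by the limit of 100 bp on their span. These shares describe the sites and carry no test. Sites without a common segment are chains, in which peaks that do not all meet are linked by overlapping neighbours.

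Fold enrichment and the number of reads at a summit, which the rule did not use, differed between displaced and aligned sites. The median fold enrichment at displaced sites was 4.49 (replicate 1) and 4.78 (replicate 2) for K+PEG, and 4.24 (replicate 1) and 3.42 (replicate 2) for K+PDS. At aligned sites it was 5.41 and 5.81 in the K+PEG libraries and 4.82 and 3.68 in the K+PDS libraries. It was thus lower at displaced sites in 4 of 4 libraries, with a mean difference of -0.69 ± 0.35 (SD, n = 4 libraries) and p = 0.13 in an exact sign-flip permutation test over libraries, two-sided, the smallest p that 4 libraries allow. With sites remade from 3 libraries it was -0.44 without K+PEG replicate 1 and -0.41 without K+PEG replicate 2. Within each library the middle 80% of the 2 classes overlapped widely, for example from 2.88 to 7.95 at displaced and from 3.17 to 9.83 at aligned sites in K+PEG replicate 1. The summits of displaced sites rested on fewer reads in 4 of 4 libraries, namely 26 and 43 (K+PEG) and 19 and 19 (K+PDS), against 32 and 55 (K+PEG) and 22 and 20 (K+PDS) at aligned sites. The part of read number in the position of a summit was not tested.

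Peaks were longer at displaced sites, with medians of 541 bp (replicate 1) and 605 bp (replicate 2) for K+PEG, and 478 bp (replicate 1) and 451 bp (replicate 2) for K+PDS. Aligned sites had medians of 445 and 482 bp for the K+PEG replicates, 388 and 366 bp for those of K+PDS. The difference was 98.5 ± 16.9 bp (SD, n = 4 libraries), higher in 4 of 4, again at the smallest p of the exact sign-flip test, 0.13. Peak bounds entered the rule, and a longer peak leaves more room for a displaced summit. The direction of this difference was thus favoured by the choice of sites, and the test cannot separate it from that choice. Among merged intervals of 600 to 1000 bp the difference in length was only 3.38 bp (exact sign-flip test, p = 0.625), while that in fold enrichment was -1.12 (exact sign-flip test, p = 0.13). In this range of merged width, the difference in length was thus nearly gone and that in fold enrichment was not. Merged width depends on the offsets of the 4 peaks as well as on their lengths. The range is therefore not an adjustment for the room left to a displaced summit.

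The share of displaced sites followed both width and strength. Of merged intervals up to 400 bp wide, 27.8% were displaced, compared with 76.5% from 600 to 800 bp and 89.1% over 1500 bp. By the lowest fold enrichment of the 4 libraries, 81.9% of 2962 sites at 2.5 or less were displaced, compared with 71.7% of 6980 between 3 and 4 and 36.7% of 30 over 10. In sites of 700 to 1000 bp the share was 87.8% where the lowest fold enrichment was 3 or less, 77.9% from 3 to 5 and 47.0% above 5, so strength and width each went with the share when the other was held in a range. By the fewest reads at any of the 4 summits, the share was 87.7% of 325 sites with 10 reads or fewer and 17.3% of 197 sites with more than 50. These shares describe sites that were divided by measured values and carry no test. A wider interval also leaves more room for a span over 100 bp, so a rise of the share with width is partly built into the rule.

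**Figure D5:**
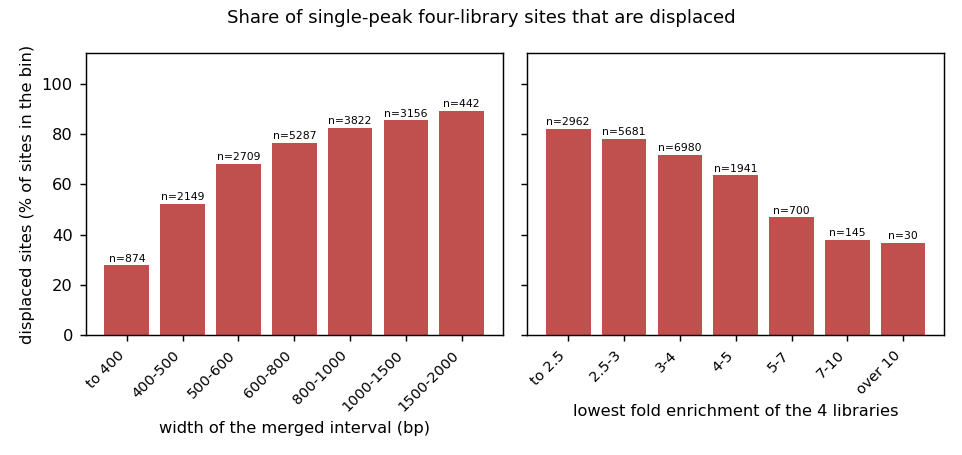
Share of single-peak four-library sites that are displaced, in percent (y axis), by width of the merged interval in bp (left) and by the lowest fold enrichment of the 4 libraries (right), with the number of sites in each bin above its bar. The share is 27.8% up to 400 bp and 89.1% over 1500 bp, and 81.9% at a fold enrichment up to 2.5 and 36.7% over 10.

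The library that stood alone was weaker there than elsewhere. At sites where it was alone, the median fold enrichment was 4.15 in K+PEG replicate 1, against 4.57 at the other displaced sites. The medians were 3.93 against 4.88 in K+PEG replicate 2, 3.99 against 4.30 in K+PDS replicate 1 and 3.29 against 3.53 in K+PDS replicate 2. All 4 libraries thus had the lower median where they were alone, which is given as a description with no test. The lowest fold enrichment of a site belonged to K+PDS replicate 2 at 61.7% of the sites where it was alone and at 44.3% of other displaced sites, but also at 56.8% of aligned sites. K+PEG replicate 2, the deepest library, was the lowest at 32.5% of the sites where it was alone and at 17.8% of other displaced sites.

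Between conditions, displaced sites had a higher fold enrichment under K+PEG, with a mean of library medians of 4.64 ± 0.21 under K+PEG and 3.83 ± 0.58 under K+PDS (SD, n = 2 libraries each), a difference of 0.80. Peaks averaged 573 ± 45.3 bp for K+PEG, against 464.5 ± 19.1 bp for K+PDS, a difference of 108.5 bp. Both K+PEG libraries were above both K+PDS libraries for either measure, at p = 0.33 in an exact permutation test, two-sided, the smallest p that 2 libraries against 2 allow, so this design cannot reach 0.05. With sites remade from 3 libraries, the difference in fold enrichment was 0.33 without K+PDS replicate 2, 0.51 without K+PEG replicate 1 and 0.51 without K+PEG replicate 2, and that in length was 60 bp without K+PEG replicate 2. By site, both K+PEG libraries had the higher fold enrichment at 5607 displaced sites (41.6%), against 42.8% of all single-peak four-library sites, and both K+PDS libraries at 1859 (13.8%), against 13.5%. These shares are near those of the whole class. The fold enrichment of the 318 sites cleanly parted by condition had medians of 4.63 and 4.83 under K+PEG and 4.52 and 3.60 under K+PDS. Depth also differed between conditions, and its part in the difference was not tested.

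Displaced sites took a like share of every chromosome. On the 12 chromosomes they made up between 72.4% (chromosome 3) and 74.5% (chromosome 12) of the single-peak four-library sites, in numbers from 878 on chromosome 10 to 1488 on chromosome 1. The share parted by condition was between 10.2% on chromosome 4 and 12.6% on chromosome 6. Sequences and gene annotations at these positions were not analysed here.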

How the data were processed

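The authors trimmed reads (Trim Galore), mapped them with BWA to the MSU v7.0 genome, removed duplicates and called peaks per library with MACS2 at p = 0.01. Control libraries (input among them) were made, but whether they entered the peak calls, and the extension, are not given in the sources used here. The lists deposited by the authors give start, end, summit, fold enrichment (a linear ratio at the summit over local background), −log10 p, −log10 q and a browser score. The last 2 were not used. Starts count from 0, and 1 bp was added to printed positions.

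Sites were made with pandas 2.3.3 and scipy 1.17.1 (numpy 2.4.6, Python 3.11.15) and drawn with matplotlib 3.10.9. Merging gave the same number of intervals as bedtools 2.31.1. Reads at a summit were solved from fold enrichment and −log10 p, and came within 0.05 of a whole number for all peaks. The scripts were tested on simulated data with planted arrangements. Exact tests used libraries, not sites, as units. Those between conditions measure the spread between 2 libraries per condition. Those of displaced against aligned sites flipped the signs of the library differences without regard to condition. All libraries together set the class of a site, so these differences are not independent replicates.

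Members and named loci were chosen with earlier results of these data known. The loci named are the 6 clean sites parted by condition, 2 by replicate number, 2 crossed and 2 per lone library with the largest gap, and the 4 strongest displaced sites. The alternatives were other limits of span and width, a −log10 p of at least 5, a merging overlap of 100 bp, peak midpoints, intervals of 600 to 1000 bp, a replicate block and each library left out. The reference annotation given is of another assembly and was not used.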

Additional observations from a re-analysis of the deposited data

How the results depend on the processing

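Shares by arrangement moved little when all 4 libraries were kept. Under the 7 such alternatives for which it was computed, the share of displaced sites parted by condition stayed within its Wilson interval, and so did the share in which K+PEG and K+PDS summits did not overlap. A span over 200 bp left 8165 displaced sites, of which 965 were parted by condition and 3310 had conditions that did not overlap. Peaks limited to a −log10 p of 5 or more left 8323, of which 994 were parted by condition and 3281 had conditions that did not overlap. The displaced share of sites was 91.6% with a span over 50 bp, 44.3% over 200 bp, 70.1% with a width limit of 1000 bp, 69.9% with that limit on p and 67.2% with peak midpoints. K+PDS replicate 2 was alone at 31.9% with a span over 50 bp, 34.9% over 200 bp and 35.8% with a width limit of 1000 bp. This share, and the shares in place of counts, were added after the data had been seen.

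With each library left out in turn and sites remade from the other 3, the displaced share ranged from 52.1% (without K+PDS replicate 2) to 65.2%, sites parted by condition from 4350 to 9156 (27.9 to 54.5% of displaced sites), and sites with conditions that did not overlap from 9753 to 13200 (63.7 to 78.6%). With 3 libraries, 1 condition has a single summit, so these counts are larger by construction. The between-condition minus within-condition distance ranged from -52.25 bp without K+PEG replicate 1 to 66.5 bp without K+PDS replicate 1, as only the pair of replicates that is left sets the distance within conditions. The differences in fold enrichment and length kept their direction in every alternative run, but displaced minus aligned fold enrichment was -0.42 with peak midpoints, and the difference in length was 157.75 bp with a −log10 p of 5 or more.

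With the replicate number as a block, the K+PEG minus K+PDS difference stayed at 0.80 in fold enrichment and 108.5 bp in length, with p = 0.5 in an exact sign-flip test, the smallest p of 2 pairs. Deviations of log2 fold enrichment of same-numbered libraries had a correlation of -0.17 over displaced sites. Such a correlation over sites cannot decide whether same-numbered libraries were prepared together. The crossed pairing, added afterwards, gave the same differences and the same p of 0.5. Each K+PDS library had a median of 19 reads at a summit of a displaced site, and the part of this depth in the placing of summits was not tested.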
